A study of Mus musculus with 8 samples.

Results

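Classical cadherins are transmembrane proteins that hold neighboring cells together at adherens junctions by binding the same cadherin on the other cell, with catenins linking their cytoplasmic tail to actin. Pluripotent cells and the early epiblast carry mainly E-cadherin, whereas the neural plate replaces it with N-cadherin, an exchange known as the cadherin switch. The data described here cover the mRNAs of 7 such genes during neural differentiation of mouse ES cells. They are Cdh1 (E-cadherin), Cdh3 (P-cadherin, of epithelia and placenta), Cdh2 (N-cadherin, of neural tissue and muscle), Cdh4 (R-cadherin, of retina and brain), and the type II cadherins Cdh6 (K-cadherin, of kidney and neural tube), Cdh8 (of brain) and Cdh11 (OB-cadherin, of mesenchyme and brain). They were read on the array by all non-control probes that carry one of these gene names, which gave 12 probes for 7 of 36163 gene names.

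E14Tg2A ES cells, a line of strain 129/Ola, were sampled as ES cells in serum and LIF at 0 days in vitro (DIV), as floating epiblast-like aggregates (ELA) at 2 DIV, as adherent neural progenitors after 6 DIV (NPC) and as neural precursors after 10 DIV (NPC/Neu), the last 3 in defined medium without serum. At each stage 1 array received total RNA of whole cells, and 1 array received Ago–RNA, the RNA that a pan-Ago antibody pulled down from the cytosolic fraction. Each of the 8 RNAs was a pool of 3 independent experiments of the same line, so a condition has 1 array, no comparison has a replicate and no p-value is given. Signals are normalized log2 intensities of a single-color Agilent array. A difference of 1 on this scale is a 2-fold change, and this size was the limit for calling a rise or a fall.

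The arrays share 1 slide, and between 53.4% and 61.2% of spots per array carried the scanner software's mark for a signal well above background. The Ago–RNA array of ES cells was brighter than the other 7 before normalization, with an upper quartile of 3039 against 1060 to 1774. Technical noise was read from 399 probes printed in 10 spots each. The median spot SD of a log2 change in total RNA was 0.19 to 0.23 across the range of brightness, which covers noise between spots and not variation between cultures. Stage markers mostly moved with the labels. From ES to ELA, 5 of 6 ES genes had a probe that fell, and 2 of 4 ELA genes rose. These 2 were Fgf5, by 2.81, and Dnmt3b, by 1.19 to 1.40 over its probes. The other ELA genes stayed under the limit, Pou3f1 with a change of 0.82 and Otx2 with 0.53. From ES to NPC/Neu, 5 of 5 neural progenitor genes and 4 of 4 neuron genes had a probe that rose, and 6 of 6 ES genes had a probe that fell, although a further Nanog probe rose by 1.31. Genes listed as markers of other lineages were read too. Of 6 mesendoderm genes counted from ES to NPC/Neu, total RNA of 3 rose and 0 fell, with a median of 2.12 over 9 probes. These were Foxa2, up to 18.7-fold, Eomes, up to 7.02-fold, and T, 4.35-fold. Foxa2 is also a gene of the floor plate and on the list of cadherin gene regulators. Eomes rose from NPC to NPC/Neu, by 2.88 and 2.40, after changes of -0.72 and -0.49 from ELA to NPC. Gsc, Sox17 and Gata4 stayed within the limit over the course, and Gata6 and Mixl1 were well above background on no total RNA array. The mean log2 signal of the 11 mesendoderm probes ran from 7.18 at the ES stage to 8.58 at NPC/Neu. Of 3 trophectoderm genes, Cdx2 had total RNA signals of 7.04, 6.63, 9.29 and 6.88 at the 4 stages and was well above background at ES and NPC, Hand1 fell at least 2.02-fold over the course, and Elf5 was well above background on no total RNA array. Of 4 surface ectoderm genes, 1 rose over the course, Trp63 at 1 of its 4 probes (2.50-fold), and 0 fell. The part of such cells in the cadherin values was not tested.

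The position of a probe on its transcript is given because RNA was compared probe by probe. All coordinates are those of mm9, and 11 of the 12 probe sequences were identical to that build at the stated place. The Cdh1 probe lies on chromosome 8 from 109193812 to 109193871, in the 3′ UTR and 275 bases from the transcript end. Its gene spans 109127251 to 109194146 on the plus strand. Cdh3 lies on the same strand, from 109034791 to 109080808, with a probe in the 3′ UTR from 109079933 to 109079992. Cdh4 covers 179177136 to 179634078 of chromosome 2 and had 3 probes. Probe 1 (179630828 to 179630887) and probe 2 (179633818 to 179633877) lie in the 3′ UTR, 3191 and 201 bases from the transcript end, and probe 3 (179581965 to 179582024) lies in the coding sequence, 5374 bases from that end. The single Cdh6 probe lies in the coding sequence on the minus strand of chromosome 15, from 12963981 to 12964040. Cdh8, on the minus strand of chromosome 8, had probe 1 from 101554638 to 101554697, which is coding in one transcript and 3′ UTR in another, and probe 2 from 101552669 to 101552728, which is found only in the 3′ UTR of another transcript. Cdh11, also on the minus strand of chromosome 8, had probe 1 in its 3′ UTR from 105157473 to 105157532. Its probe 2 has 33 bases placed at the gene's end, from 105156895 to 105156927, and matched neither that stretch in full nor any coding transcript, so its values are given as those of a probe named for Cdh11.

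The coding probes of Cdh4 and Cdh6 are shown because they read the coding sequence, while most member probes read the 3′ UTR. They are written 5′ to 3′ on the gene's strand.
Cdh4 probe 3: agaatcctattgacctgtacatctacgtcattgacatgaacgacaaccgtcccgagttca
Cdh6 probe: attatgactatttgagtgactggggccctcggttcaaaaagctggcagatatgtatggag

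Ago proteins find mRNAs through the miRNAs they carry, so the 3′ UTRs of the members were searched for sites of 4 miRNA groups known from these cell states. These are miR-294 and miR-302b of pluripotent cells, let-7a and miR-9 of differentiating and neural cells, and the miR-200 family of epithelia, which represses Zeb1 and Zeb2. Mature sequences (RefSeq, GRCm38.p6) are shown 5′ to 3′ with the seed, bases 2 to 8, in capitals. No miRNA was measured on these arrays.
miR-294-3p: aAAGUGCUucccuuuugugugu
miR-302b-3p: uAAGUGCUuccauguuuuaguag
miR-9-5p: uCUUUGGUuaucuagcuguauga
let-7a-5p: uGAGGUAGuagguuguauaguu
miR-200b-3p: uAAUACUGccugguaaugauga
miR-200a-3p: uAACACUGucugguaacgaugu

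The letters searched were AGCACTT for the shared seed of miR-294 and miR-302b, ACCAAAG for miR-9, CTACCTC for let-7a, CAGTATT for miR-200b and miR-200c, and CAGTGTT for miR-200a, on the sense strand of the longest annotated 3′ UTR. A match is a description of these letters and not a site shown to be used. Cdh1 held 1 match, to miR-9, at base 793 of 1631, and 15.7% of 3065 UTRs of similar length held one too. Cdh3 held 1 match to miR-294 and miR-302b at base 1265 of 1458, as 16.5% of 3003 UTRs did. Cdh4 held 1 match to miR-9 at base 2737 of 3455, as 29.0% of 1759 UTRs did, and Cdh11 held 1 match to miR-200b and miR-200c at base 705 of 1319, as 14.7% of 2989 UTRs did. Cdh8 held 1 match to let-7a at base 670 and 1 to miR-200b and miR-200c at base 1521 of 2352, as 14.9% and 23.3% of 2726 UTRs did. Part of this UTR is coding in another Cdh8 transcript, and the let-7a match lies in that part. The Cdh2 UTR of 1270 bases held none of the 5 words, and the Cdh6 transcript used has no annotated 3′ UTR and was not searched. The matches in Cdh1, Cdh3, Cdh4 and Cdh11 follow with the searched letters in capitals.
Cdh1, miR-9: ggagtgccaccACCAAAGacagaggagaga
Cdh3, miR-294 and miR-302b: agaaagccagcAGCACTTagctttgatgac
Cdh4, miR-9: ggtctcctgccACCAAAGtgtcagagtaat
Cdh11, miR-200b and miR-200c: catacaaatatCAGTATTctgacatgtacg

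Total RNA showed which cadherin mRNAs were exchanged and when. Cdh1 and Cdh3 fell between ELA and NPC, while Cdh2, Cdh4, Cdh6 and Cdh11 rose at the same step. Cdh4 rose at the other steps as well, starting at the ES–ELA transition, and Cdh8 did not pass the limit at any step. In a bulk sample, fewer cells of a type and less RNA per cell cannot be told apart, which applies to each of these changes.

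The total RNA signal of Cdh1 was 14.58 at the ES stage, 15.28 at ELA, 8.91 at NPC and 8.76 at NPC/Neu. The first pair of stages was far above the last pair, and the probe was well above background on all 8 arrays. From ELA to NPC it fell by 6.37 on the log2 scale, an 82.8-fold change, with an SE over its 10 spots of 0.08. Only 12 of 35022 probes, this one included, had a change as low or lower at that step. From ES to ELA it was higher by 0.70 (SE 0.07), which is under the limit but larger than the spread of its spots. Between NPC and NPC/Neu it differed by -0.15 (SE 0.07), so the level reached at 6 DIV was close to that at 10 DIV.

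**Figure D1:**
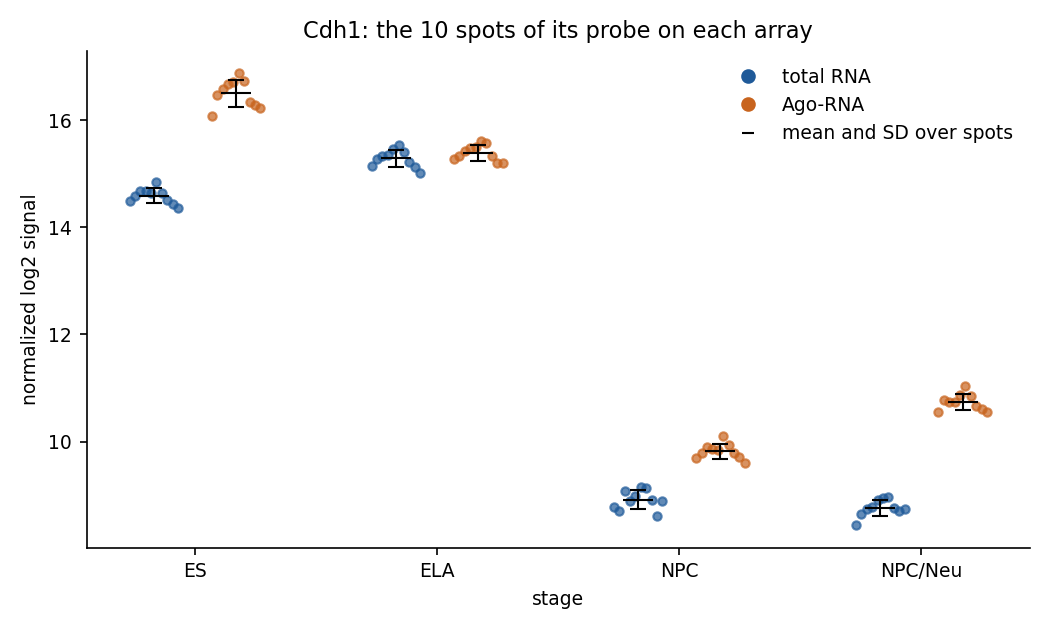
Normalized log2 signal (vertical axis) of each of the 10 spots of the Cdh1 probe on each array, by stage (horizontal axis), with total RNA in blue, Ago–RNA in orange, and the mean and SD over spots in black. Total RNA falls from a mean of 15.28 in ELA to 8.91 in NPC with no overlap of spots, and the Ago–RNA and total RNA spots overlap in ELA only.

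Cdh3 had total RNA signals of 11.06 at the ES stage, 10.70 at ELA, 7.30 at NPC and 7.27 at NPC/Neu. Its order of stages differed from that of Cdh1 in that ES was highest, with a change of -0.36 from ES to ELA. From ELA to NPC it fell by 3.39, or 10.5-fold, with a spot SD of 0.22 for a probe of this brightness. The size of this fall depends on how the background is treated, since its log2 value lay between -4.66 and -3.16 over the alternatives tried. Changes as low or lower were seen for 309 of 35022 probes.

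The total RNA signal of Cdh2 at probe 1 was 11.64 at the ES stage, 12.38 at ELA, 15.88 at NPC and 16.61 at NPC/Neu. At probe 2 it was 11.20 at the ES stage, 11.94 at ELA, 15.47 at NPC and 16.07 at NPC/Neu. Both probes thus showed N-cadherin mRNA well above background before neural induction. From ELA to NPC probe 1 rose by 3.50 (11.3-fold) and probe 2 by 3.52 (11.5-fold), with a spot SD of 0.20. The changes at the steps before and after were 0.74 and 0.73 at probe 1, and 0.75 and 0.60 at probe 2, which are under the limit and above the spot SD. Over the whole course, from ES to NPC/Neu, Cdh2 rose 31.4-fold and 29.3-fold at its 2 probes, while Cdh1 fell 56.5-fold.

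R-cadherin mRNA rose before the neural step. Total RNA of Cdh4 at probe 1 was 9.04 at the ES stage, 11.08 at ELA, 12.35 at NPC and 14.46 at NPC/Neu. At probe 2 it was 7.94, 10.13, 11.32 and 13.34 at the same stages. Each stage was above the one before by more than the limit at both probes. From ES to ELA probe 1 rose by 2.05 and probe 2 by 2.20 (spot SD 0.21 and 0.23), changes that 207 and 146 of 34343 probes reached. Both steps that followed were rises too, by 1.27 and 2.11 at probe 1 and by 1.18 and 2.02 at probe 2.

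The coding probe of Cdh4, probe 3, followed the same direction with smaller changes. Its total RNA signal was 6.72 in ES cells and 7.10 in ELA, neither well above background, then 7.60 in NPC and 8.72 in NPC/Neu. From ES to NPC/Neu it rose at least 3.93-fold, against 43.0-fold at probe 1 and 42.4-fold at probe 2. The change at probe 3 depends on how the background is treated, since its log2 value lay between 1.96 and 4.33 over the alternatives tried, against 5.15 to 5.96 at probe 2. Its change from NPC to NPC/Neu was 1.12, between 1.05 and 1.72 over the alternatives.

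Among the type II cadherins, Cdh6 had total RNA signals of 7.45 at the ES stage, 8.06 at ELA, 9.90 at NPC and 10.65 at NPC/Neu. The order of its stages was that of Cdh2. It rose by 1.84 from ELA to NPC (3.59-fold, spot SD 0.22), with 0.61 before and 0.74 after. Over the alternatives tried the rise from ELA to NPC lay between 1.69 and 2.36. The change of Cdh6 from ES to ELA was 1.05, past the limit, with the processed signal after quantile normalization.

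Cdh11 probe 1 had total RNA signals of 6.25 in ES cells, where it was not well above background, 7.28 at ELA, 10.87 at NPC and 10.54 at NPC/Neu. From ELA to NPC it rose by 3.59, or 12.1-fold, with a spot SD of 0.22. Over the alternatives tried this log2 change lay between 3.35 and 4.98, while that of Cdh2 lay between 3.49 and 3.64, so the sizes of their rises could not be ranked. From ES to ELA its computed change of 1.02 passed the limit, but with the background of the ES array taken into account it is a change of at least 1.45-fold, and its log2 value lay between 1.08 and 3.02 over the alternatives. Probe 2 named for Cdh11 had signals of 7.29, 7.27, 9.01 and 8.60 in ES, ELA, NPC and NPC/Neu, was not well above background in ELA, and rose at least 3.33-fold from ELA to NPC, with a log2 change of 1.73 that lay between 1.64 and 3.00 over the alternatives. At both probes NPC was the highest stage, with changes of -0.33 and -0.41 from NPC to NPC/Neu. As Cdh11 is also known from mesenchyme, the mesenchyme markers are given beside it. Total RNA of 6 of 7 such genes (Col1a1, Col1a2, Col3a1, Lum, Pdgfra, Prrx1 and Twist1) rose from ELA to NPC with a median of 1.49 over 8 probes, 3 of the 7 genes were well above background in ELA and 7 in NPC, and their mean log2 signal on the 4 total RNA arrays ran from 7.35 to 9.28. Twist1 is also on the list of cadherin gene regulators. Of 4 neural crest genes, Sox9 rose at that step, Foxd3 and Ets1 fell, and Sox10 changed by -0.17. Foxd3 had total RNA signals of 12.60 in ES cells, 12.59 in ELA and 6.48 in NPC. The part of such cells in the Cdh6 and Cdh11 values was not tested.

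Cdh8 total RNA at probe 1 was 8.44 at the ES stage, 8.48 at ELA, 8.51 at NPC and 8.49 at NPC/Neu, a range that is smaller than the spot SD of 0.20 to 0.23. Probe 2 had 6.44, 6.50, 6.59 and 6.78 at these stages and was not well above background on any total RNA array.

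**Figure D2:**
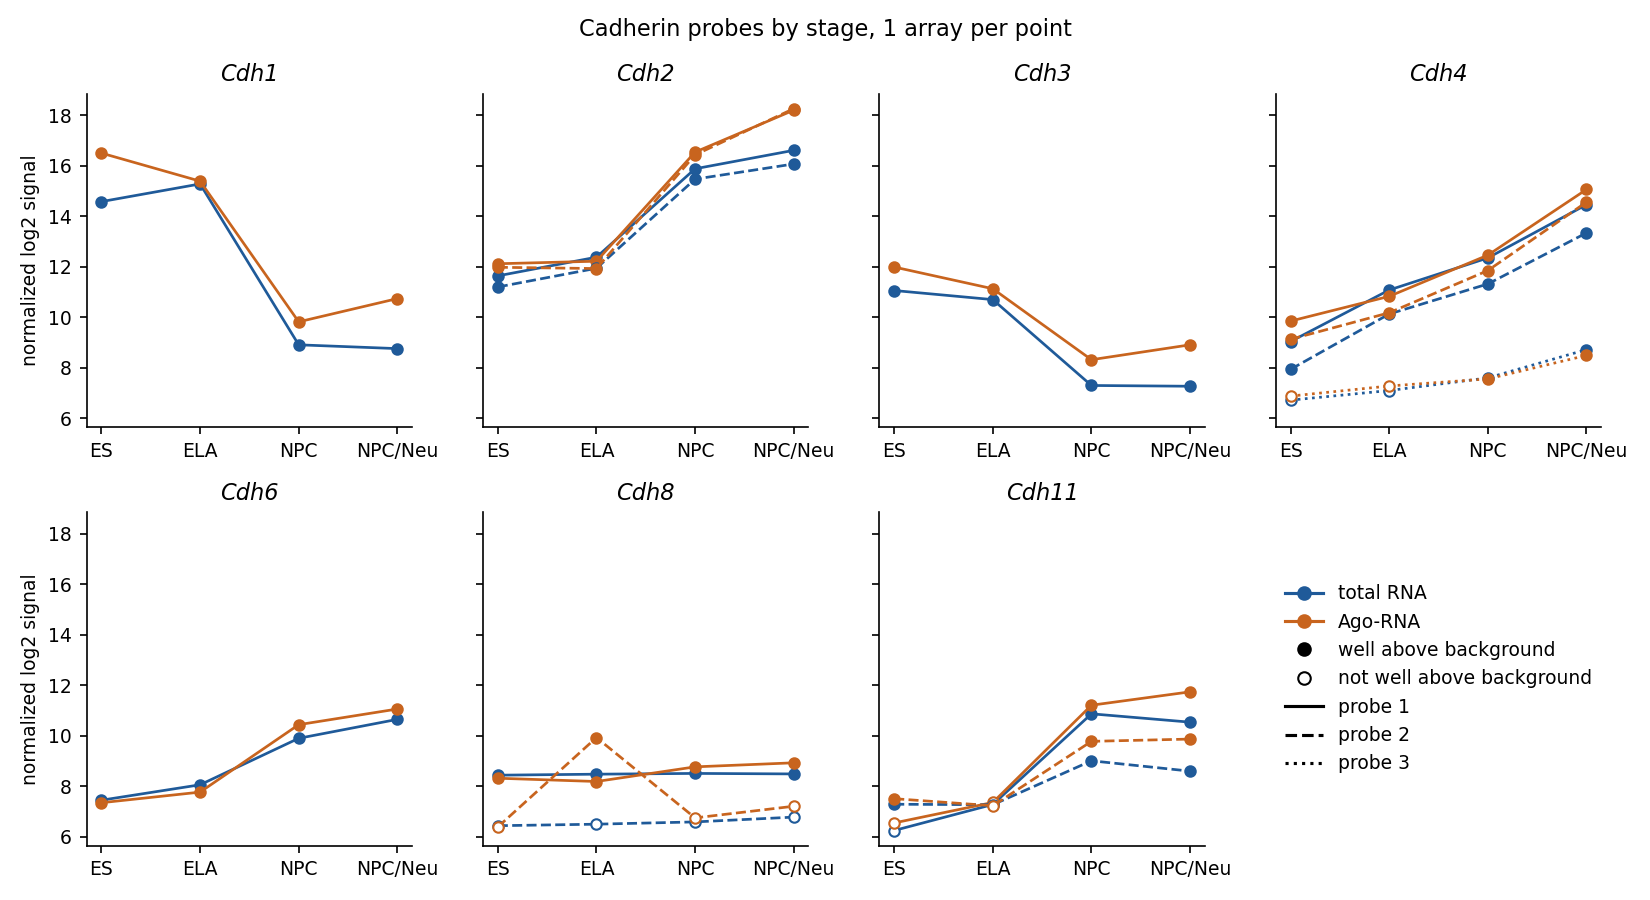
Normalized log2 signal (vertical axis) of the 12 cadherin probes at each stage (horizontal axis), 1 panel per gene, with total RNA in blue, Ago–RNA in orange, line types for the probes of a gene, and open circles where a probe was not well above background. Cdh1 and Cdh3 drop between ELA and NPC, Cdh2, Cdh6 and Cdh11 climb there, and Cdh4 climbs at every step.

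Counted over probes, 3 of 10 member probes with a total RNA signal well above background on at least 1 of both arrays rose from ES to ELA and 0 fell, where 4.90% of 34343 probes rose and 5.17% fell. The 3 were Cdh4 probes 1 and 2 and Cdh11 probe 1. From ELA to NPC, 7 of 11 rose and 2 fell, against 11.1% and 10.1% of 35022 probes. From NPC to NPC/Neu, 3 of 11 rose, all of them Cdh4, and 0 fell, against 5.92% and 4.17% of 34758 probes. Over the whole course 8 of 11 rose and 2 fell, against 16.9% and 16.6% of 36537 probes, and the median change of the members was 3.20 where that of all probes was -0.06. Probes of 1 gene share their target, and the genes behind the 7 rises and 2 falls from ELA to NPC were 4 and 2. Those behind the 8 rises and 2 falls over the whole course were also 4 and 2.

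Ago enrichment (E) is, for one stage, the log2 signal of Ago–RNA minus that of total RNA. It sets an mRNA's share of the Ago-bound pool against its share of total RNA, and after normalization the median probe lies near 0. Among member probes well above background on both arrays of a stage, E was highest for Cdh1 in ES cells and for Cdh1, Cdh2 and Cdh3 in NPC/Neu, and it was near 0 in ELA for most members. No member probe had E of -1 or lower at any stage.

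Ago–RNA of Cdh1 had a signal of 16.50 at the ES stage, 15.39 at ELA, 9.82 at NPC and 10.74 at NPC/Neu. Unlike its total RNA, it was lower in ELA than in ES cells, with a change of -1.10. E was 1.91 at the ES stage (SE over spots 0.09), 0.11 at ELA (SE 0.07), 0.91 at NPC (SE 0.07) and 1.97 at NPC/Neu (SE 0.07). In ES cells 360 of 30751 probes reached this E, and in NPC/Neu 498 of 28527 probes did. The change in E from ES to ELA was -1.80 (SE 0.12), which passed the limit of 1.5 set for changes in E. It moved to -1.32, short of that limit, when processed signals at a common 75th percentile were used instead. With total RNA low in NPC/Neu, E there differed from that in ES cells by 0.06 (SE 0.12).

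Cdh2 mRNA had a higher E at the last stage than at the first. Its Ago–RNA signal at probe 1 was 12.12 at the ES stage, 12.22 at ELA, 16.54 at NPC and 18.20 at NPC/Neu, and at probe 2 it was 11.98, 11.93, 16.43 and 18.26. E at probe 1 was 0.48 at the ES stage, -0.17 at ELA, 0.65 at NPC and 1.60 at NPC/Neu, and at probe 2 it was 0.79, -0.01, 0.96 and 2.19. Both probes were lowest in ELA and highest in NPC/Neu, where 1136 and 301 of 28527 probes had E as high. Between NPC and NPC/Neu, when total RNA of Cdh2 differed by 0.73 and 0.60, its Ago–RNA rose by 1.67 and 1.83. The spot SD of E at these signals was 0.20 to 0.23, and the difference between the 2 probes in NPC/Neu was larger than that.

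Ago–RNA of Cdh3 had signals of 11.99, 11.13, 8.32 and 8.91 in ES, ELA, NPC and NPC/Neu. E of Cdh3 was 0.93, 0.43, 1.02 and 1.64 at these stages, with a spot SD of 0.20 to 0.21. Among member probes well above background on both ELA arrays it had the highest E, which was nonetheless the lowest in its own series. E of Cdh3 depends on how the background is treated, and lay between 0.99 and 1.86 in NPC and between 1.66 and 2.71 in NPC/Neu over the alternatives tried.

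Ago–RNA of Cdh4 was 9.85, 10.83, 12.46 and 15.06 at probe 1 and 9.13, 10.18, 11.85 and 14.56 at probe 2, higher at each stage than at the one before, as total RNA was. E was 0.82, -0.25, 0.11 and 0.60 at probe 1, and 1.19, 0.04, 0.54 and 1.22 at probe 2, lowest in ELA and next lowest in NPC at both. From ES to ELA, when total RNA rose by 2.05 and 2.20, E changed by -1.07 and -1.15. At the coding probe 3, which could be read in NPC and NPC/Neu only, Ago–RNA was 7.56 and 8.49, and E was -0.04 and -0.22. In NPC/Neu the 3 Cdh4 probes thus gave E of 0.60, 1.22 and -0.22 for the same gene, farther apart than their spot SD of 0.20 to 0.23.

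Cdh6 had Ago–RNA signals of 7.35, 7.77, 10.44 and 11.06, and E of -0.10 at the ES stage, -0.29 at ELA, 0.54 at NPC and 0.41 at NPC/Neu, none past the limit. Cdh11 probe 1 had Ago–RNA signals of 6.55 and 7.36 in ES cells and ELA, not well above background, then 11.21 in NPC and 11.74 in NPC/Neu. Its E was 0.34 in NPC and 1.20 in NPC/Neu. Probe 2 had Ago–RNA signals of 7.51, 7.23, 9.78 and 9.87 and E of 0.21 in ES cells, 0.77 in NPC and 1.27 in NPC/Neu. Both Cdh11 probes therefore passed the limit at the last stage, when their total RNA was lower than in NPC.

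The 2 Cdh8 probes disagreed on a single array. Ago–RNA at probe 1 was 8.32 at the ES stage, 8.19 at ELA, 8.77 at NPC and 8.93 at NPC/Neu, with E of -0.12, -0.30, 0.26 and 0.44. Ago–RNA at probe 2 was 6.39, 9.93, 6.75 and 7.21 at these stages, well above background in ELA only. In ELA its Ago–RNA was at least 7.86-fold above its total RNA. Before normalization that spot had a mean signal of 693 over a local background of 83.0, with a median of 673 and a pixel SD of 190 over 37 pixels, and the scanner software did not mark it as irregular. On the other 7 arrays the mean signal of probe 2 was 78.7 to 140. The high value rests on 1 spot of 1 array, and the probe is found in 1 annotated transcript that probe 1 does not cover.

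**Figure D3:**
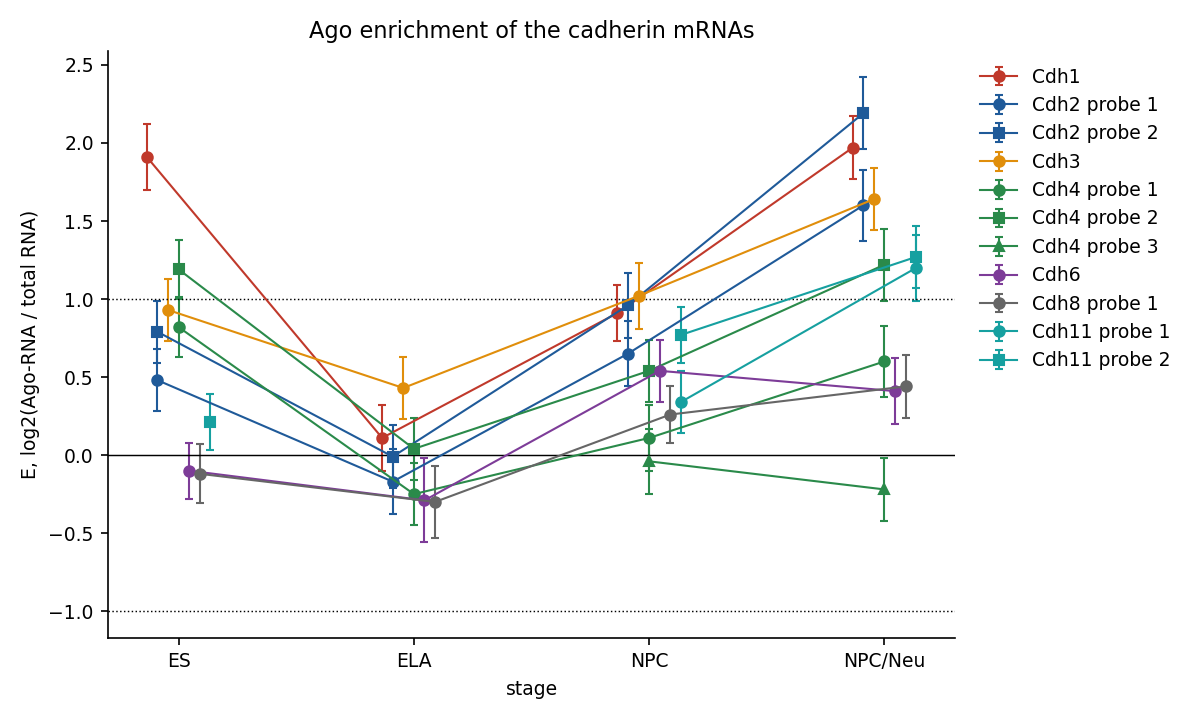
Ago enrichment E, log2 Ago–RNA minus log2 total RNA (vertical axis), by stage (horizontal axis) for each cadherin probe well above background on both arrays of the stage. Bars are the spot SD of a single-spot ratio and dotted lines mark the limits of 1 and -1. The 8 probes read in ELA have their lowest E there, between -0.30 and 0.43, and E reaches 2.19 in NPC/Neu.

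Counted over probes well above background on both arrays, E was at least 1 for 2 of 9 member probes at the ES stage (Cdh1 and Cdh4 probe 2), 0 of 8 at ELA, 1 of 11 at NPC (Cdh3) and 7 of 11 at NPC/Neu. The 7 probes at NPC/Neu belong to 5 genes. The shares over all probes were 11.9%, 4.60%, 6.27% and 13.4%. E was -1 or lower for 0 member probes at each stage, where 12.1%, 3.13%, 6.91% and 12.4% of all probes were. A change in E of 1.5 or more in either direction was found for 1 of 8 member probes from ES to ELA, Cdh1, for 0 of 8 from ELA to NPC and for 0 of 11 from NPC to NPC/Neu, against 4.29%, 1.35% and 1.47% of all probes. The direction was shared more widely than the size. From ES to ELA E was lower in ELA at 8 of 8 member probes, with changes of -1.80 to -0.17, where 50.3% of 26671 probes were lower. With the processed signal this held for 7 of 8 probes after quantile normalization and for 6 of 8 after scaling to the 75th percentile. From ELA to NPC E was higher at 8 of 8 member probes, by 0.36 to 0.97, where 52.7% of 25592 probes were higher. In both comparisons the 8 probes belong to 6 genes. Over all probes, the shares with E past 1 or -1 were also smallest in ELA. The shares of all probes that were lower or higher include probes of any E at the ES stage. The median E there was 0.79 for the 9 member probes counted and 0.04 for all probes, and this difference was not allowed for.

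Adherens junction partners, a list of catenins, nectins, enzymes that cut cadherins and other junction genes, were measured with 19 probes for 13 genes. Over the whole course total RNA of 4 genes rose and 3 fell, and the median change was 0.92, against -0.06 for all probes. The core catenins stayed within the limit. Total RNA of Ctnnb1 (β-catenin) changed by 0.93, Ctnna1 (αE-catenin) by -0.05 and Ctnnd1 (p120-catenin) by -0.46 from ES to NPC/Neu. The rises with the largest size at a single probe were those of Ctnna2, the neural α-catenin, at 144-fold, and Pvrl3 (nectin-3) at 88.3-fold. Another Ctnna2 probe rose at least 9.53-fold, and the other Pvrl3 probes rose 44.8-fold and 3.73-fold. Next were Ctnnd2 (δ-catenin) at 15.1-fold and Adam10, a protease that sheds N-cadherin, at 6.06-fold. The falls were those of Vcl (vinculin) at 3.03-fold, Jup (plakoglobin) at 2.68-fold and Pvrl2 (nectin-2) at 2.22-fold at one probe, where its other probe changed by -0.87.

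The median E of these partners was also lowest in ELA. It was 1.04 at the ES stage, 0.36 at ELA, 0.58 at NPC and 1.47 at NPC/Neu, against 0.04, -0.02, 0.06 and 0.09 for all probes, and E of at least 1 was found for 9, 0, 3 and 11 of 18 probes. Ctnna1 had E of 2.28, 0.10, 0.58 and 2.13 at the 4 stages, Ctnnb1 had 2.06, 0.38, 0.72 and 2.01, and Ctnnd1 had 1.55, 0.07, 0.61 and 1.82. In these catenins, as in Cdh1, E was lowest in ELA, next lowest in NPC, and higher in ES cells and NPC/Neu. A median E lowest in ELA was not particular to junction genes. At the 4 stages it was 0.53, -0.22, 0.09 and 0.41 for ES markers. For epithelial and desmosomal genes it was 0.52, 0.04, 0.34 and 0.58, and for the other cadherins 0.45, 0.03, 0.24 and 0.56. Neuron markers differed, with -0.69, 0.08, 0.09 and 0.0.

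Regulators of cadherin genes moved in both directions. Of 16 genes, total RNA of 5 rose and 6 fell from ES to NPC/Neu, with a median of -0.20 over 22 probes. Zeb1, a repressor of Cdh1, rose by 4.73 from ELA to NPC and by 5.36 (41.2-fold) over the course. Zeb2, a related repressor, had a probe that rose by 4.96 (31.2-fold) and another that rose at least 3.10-fold. The first Zeb2 probe rose from ES to ELA already, by 2.38. Snai1 rose by 1.78 from ES to ELA and fell by 2.45 from ELA to NPC. Snai2 rose by 1.11 from ES to ELA, then changed by 0.62 and -0.49. The other large rises over the course were those of Foxa2, a transcription factor of endoderm and floor plate, and Tcf4, a basic helix-loop-helix factor. Foxa2 rose 18.7-fold at its higher probe and no less than 4.67-fold at the other. Tcf4 rose 6.73-fold and 4.51-fold. The falls with the largest size at a single probe were in epithelial regulators, Grhl2 at 29.5-fold and Esrp1 at 25.6-fold. Their other probes fell at least 4.60-fold and 7.51-fold. Esrp2 fell no less than 9.32-fold and Grhl3 5.68-fold. The Grhl genes encode epithelial transcription factors and the Esrp genes splicing factors.

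Epithelial and desmosomal genes fell with Cdh1 at the ELA–NPC transition. Total RNA fell at that step for 12 of 15 genes (16 of 20 probes) and rose for 0, with a median of -2.09 against 0.01 for all probes. Over the course the falls with the largest size were those of Cldn7 (35.3-fold), a claudin of tight junctions, Epcam (24.5-fold), an epithelial adhesion molecule, Cldn6 (23.6-fold) and the keratin Krt8 (22.5-fold). Epcam fell by 5.17 from ELA to NPC and had E of -0.04, -0.67, -0.17 and 0.53 at the 4 stages, so unlike Cdh1 it was below 1 throughout.

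The other classical and atypical cadherins, 13 genes with 1 probe each, were mostly dim, and Cdh5, Cdh19 and Cdh24 were well above background on no total RNA array. Over the course 4 of the 10 genes counted rose and 1 fell, with a median of 0.43. Cdh22 rose 126-fold, with signals of 7.05, 10.67, 13.32 and 14.03, so that, as for Cdh4, the first rise came from ES to ELA. Cdh13 rose 14.6-fold, Cdh7 no less than 2.19-fold and Cdh20 no less than 1.99-fold, while Cdh9 fell 2.10-fold. E of these cadherins was under 1 for the 7 counted in ES cells and for the 9 counted in NPC/Neu.

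**Figure D4:**
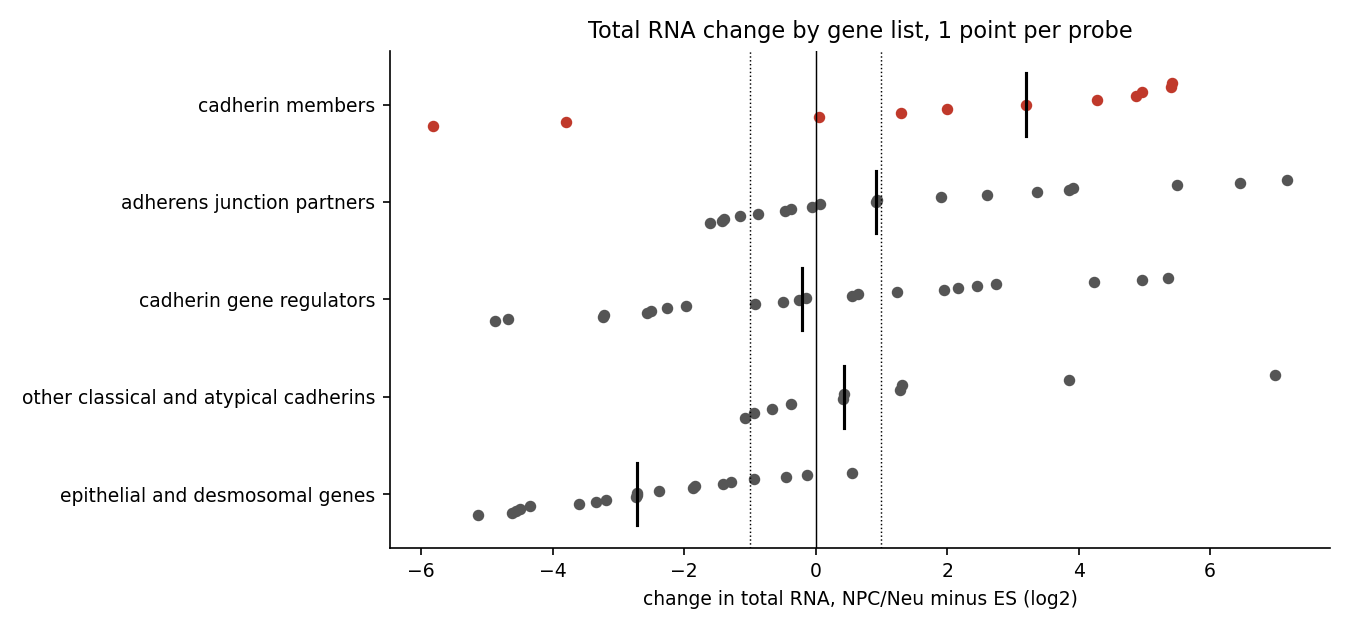
Change in total RNA from ES to NPC/Neu on the log2 scale (horizontal axis) for the cadherin members and 4 gene lists (vertical axis), 1 point per probe well above background on at least 1 of both arrays, with the median as a black bar and the limits of 1 and -1 dotted. The members have changes of -5.82 and -3.79 below 0 and rises up to 5.42 above it, with Cdh8 probe 1 at 0.05. The epithelial and desmosomal list lies mostly below 0 with a median of -2.71.

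The genes whose signals over the 8 arrays were most like those of a member were named by the smallest root mean square difference of centered log2 signals. For Cdh1 they were Zscan10 (0.35), Dnmt3b (0.41), Slc7a3 (0.57), Tnk1 (0.59) and Utf1 (0.60) among 19672 probes. For Cdh2 probe 1 they were Sox1 (0.23), Gm1568 (0.36), Srgap3 (0.37), Pcdhac2 (0.37) and Pcdh19 (0.40). Sox1 is an early marker of the neural plate, and Pcdhac2 and Pcdh19 encode protocadherins. For Cdh3 the nearest were Pdgfb (0.27), Cbs (0.29) and Myh14 (0.30). Those of Cdh4 probe 1 were Spsb4 (0.25), Gnao1 (0.33) and Insm1 (0.33), and those of Cdh6 were AI426330 (0.18), Lrp12 (0.21) and Pth1r (0.22). For Cdh11 probe 1 they were Zfr2 (0.21), Cacna1g (0.28) and Klhl29 (0.29). The nearest to Cdh8 probe 1, Tm9sf1 (0.08), Camp (0.09) and Spg21 (0.10), were probes that hardly moved either.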

How the data were processed

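Total RNA and Ago–RNA of 4 stages were measured on 8 Agilent SurePrint G3 Mouse arrays, 1 per condition, each with RNA pooled from 3 experiments. The amount labeled differs between the labels and the methods and is not used here. The authors deposited spot intensity as extracted from the scanned image, namely the mean, the local background and a processed intensity, with no normalization between arrays. The file headers name Feature Extraction 10.7.3.1 and the submitters' processing notes 9.1, with limma.

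Background was removed from the mean intensity by normexp with an offset of 50 (limma 3.58.1, R 4.3.3). Irregular spots were set aside, quantile normalization was run across all 8 arrays on the log2 scale, and spots of a probe were averaged. Quantile normalization removes differences in overall RNA recovery. Python 3.11.15 with numpy 2.4.6 and pandas 2.3.3 gave the remaining values. A change in total RNA was counted for probes well above background on at least 1 of both arrays, E on both, and a change in E on all 4. The limits were 1 for total RNA and E and 1.5 for a change in E, on the log2 scale. Where a probe was not well above background on an array, a fold is a lower bound, the bright signal over the higher of the probe's own signal and the lowest signal well above background there. With no replicate, no test was run, and the number of arrays limits precision. Spot SDs are medians over repeated probes of similar brightness. SEs of Cdh1 changes treat the spots of different arrays as independent and do not pair them by position on the array. Signals were not compared between probes. Similar length for UTRs means 80% to 125% of the member's. The procedure was tested on simulated data.

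Probes were placed on mm9 (NCBIM37) and GENCODE vM1 transcripts. The file headers name mm9 as the build of the array annotation, and 11 of 12 probes matched it at the given coordinates. The members and gene lists were chosen with earlier results of these data known. Named genes are all member probes, up to 4 largest rises and 4 largest falls past the limit per list from ES to NPC/Neu, 8 genes of catenins and repressors with Epcam, and the 5 (Cdh1, Cdh2) or 3 genes most like a member. The markers were read in total RNA. Alternatives were an offset of 16 or 0, processed intensity either quantile normalized or set to a common 75th percentile, normalization within each kind of RNA, other filters and limits, and the mean over the probes of a gene. Control immunoprecipitations and the study's sequencing were not analysed here.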

Additional observations from a re-analysis of the deposited data

Results flagged for a closer look

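E had opposite signs at a pair of stages, each larger than the spot SD, for 3 member probes, and these differences between stages were not tested, since each stage has 1 array. Cdh4 probe 1 had E below 0 in ELA and above 0 in ES cells and NPC/Neu, with differences of -1.07 (ELA minus ES) and 0.84 (NPC/Neu minus ELA). Cdh6 had E below 0 in ELA and above 0 later, with differences of 0.83 (NPC minus ELA) and 0.70 (NPC/Neu minus ELA). Cdh8 probe 1 had the same signs, with differences of 0.56 (NPC minus ELA) and 0.74 (NPC/Neu minus ELA).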

How the results depend on the processing

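No paired analysis of samples was possible because each condition has 1 array and no result comes from a test. For the same reason no array could be left out. Of the member values past a limit of 1, none changed sign under the 5 other ways of correcting and scaling the signal. The change of Cdh1 from ELA to NPC was -6.66 with the processed signal after quantile normalization and -6.79 after scaling to the 75th percentile, and E of Cdh1 in ES cells was 1.29 with that scaling, which moved the median E of all probes well above background on every array to -0.21 there, from 0.05. With that scaling 0 member probes passed the limit for a change in E from ES to ELA. E of at least 1 in NPC was found for 2 member probes with the quantile-normalized processed signal and for 2 with quantile normalization within each kind of RNA, which gave 5 in ES cells and a median E of 0.25 there. With no filter on signal, 1 member probe had E of at least 1 in ELA, and the limit for a change in E was passed by 2 from ES to ELA and 1 from ELA to NPC, through Cdh8 probe 2. With a limit of 2 on the log2 scale, 3 member probes rose in total RNA from ELA to NPC, E passed it for 0 in ES cells, 0 in NPC and 1 in NPC/Neu, and 0 changed in E from ES to ELA. The causes were not tested. Over all alternatives, 534 of the other member values moved by no more than the spot SD and 209 by more.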
